A study of Mus musculus with 10 samples.

Results

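Expression of 8 genes that control lipid synthesis was examined in mouse gastrocnemius, the large fast muscle of the calf: Srebf1, Srebf2, Insig1, Acly, Acaca, Fasn, Scd1 and Hmgcs1. The genes were chosen by symbol as regulators and enzymes of fatty acid and cholesterol synthesis, and all 8 were found among the 18025 genes of both deposited tables. Messenger RNA was sequenced from 5 control and 5 COPD samples of wild type C57BL/6 mice aged 8 weeks. COPD here stands for chronic obstructive pulmonary disease modelled with cigarette smoke, as the title of the series states. The dose and length of smoke exposure, the sex of the mice and the treatment of the controls are not stated in the labels. The labels do not say that samples of a group came from separate animals, so p-values cover the spread among the samples alone, and that may be technical. Gastrocnemius is whole tissue, and in bulk RNA fewer cells of a type and less RNA per cell cannot be told apart.

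Sterol regulatory element-binding proteins (SREBPs) are transcription factors made as precursors in the endoplasmic reticulum membrane. When sterols are scarce, SCAP escorts them to the Golgi, where proteases free the active part, and INSIG proteins hold SCAP back when sterols are plentiful. The protein from Srebf1 mainly drives fatty acid genes and that from Srebf2 mainly cholesterol genes. In muscle, malonyl-CoA made by the acetyl-CoA carboxylases also restrains fatty acid entry into mitochondria, while fat cells lying between fibres carry out lipid synthesis at a far higher rate than fibres do.

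RefSeq promoter windows on GRCm38.p6, reaching from 250 bases before to 50 bases after a start site, were at hand for 7 of the 8 genes (9 windows, 3 of them for Srebf1). Both strands were searched for TCACNCCAC (a sterol regulatory element), CCAAT (the NF-Y box), CACGTG (an E-box) and GGGCGG (the GC box). Over all 32851 windows of this length, these motifs were found in 1.24%, 37.4%, 7.15% and 35.7%. The Hmgcs1 window was the only one of the 9 with TCACNCCAC, and the Insig1 window the only one with the E-box. The NF-Y box occurred 4 times for Hmgcs1, 3 times for Fasn and once each for Srebf2, Insig1, Acly and 2 of the Srebf1 windows, and the Acaca window held none of the 4 motifs. The stretches below show some of these matches for a cholesterol enzyme, the sterol-sensing regulator and a fatty acid enzyme. They are parts of the windows, of unequal length, and the Hmgcs1 and Insig1 windows hold further matches outside them. Capitals mark motif matches on either strand, and a match is a description of letters, not of binding.
Hmgcs1, chr13:119690171-119690266, plus strand, 180 to 85 bases before the start: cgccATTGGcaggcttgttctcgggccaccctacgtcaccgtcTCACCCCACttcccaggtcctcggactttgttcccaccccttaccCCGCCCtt
Insig1, chr5:28071282-28071322, plus strand, 130 to 90 bases before the start: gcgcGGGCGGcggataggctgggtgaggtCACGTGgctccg
Fasn, chr11:120824597-120824642, minus strand, 95 to 50 bases before the start: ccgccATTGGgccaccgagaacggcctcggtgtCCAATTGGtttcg
The last capitals of the Fasn stretch are 2 overlapping matches to CCAAT, on opposite strands.

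Totals of expected counts (estimated reads per gene) ran from 14085854 to 17251034 per library. Summed counts of Kdm5d, Ddx3y and Eif2s3y, which lie on the Y chromosome, were 1118 to 1974 in the 5 controls and in COPD replicates 2 and 3, but 4, 3 and 3 in COPD replicates 1, 4 and 5. Libraries with and without Y-linked transcripts are therefore mixed in the COPD group only. COPD replicate 5 had the lowest precision weight of the 10 libraries in limma's voom, 0.510 against 0.609 to 1.69 for the others. That weight was computed from these same data. In counts scaled to a common library size, COPD replicate 5 also held the highest Acaca and Scd1 levels, with a control library close behind for each gene. Results are given with and without COPD replicate 5, and the fit without it is not independent support. Markers of fast muscle fibres were at 154400 to 241600 summed TPM (a level per transcript length) in every control and 202300 to 238400 in every COPD library, which fits the labelled tissue.

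None of the 8 genes passed an adjusted p of 0.05 between COPD and control by edgeR's quasi-likelihood test. Across the transcriptome the same test called 8 of 12697 genes, 0.063%. Scd1, Acaca and Acly had the largest shortfalls in COPD, with log2 fold changes of -0.78 ± 0.65 (SE), -0.42 ± 0.25 and -0.36 ± 0.14. Insig1 stood highest, at 0.26 ± 0.15. Control and COPD libraries overlapped in CPM (counts scaled to a common library size by TMM) for all 8, where 2.84% of tested genes had groups that did not overlap. Acly alone had an unadjusted edgeR p under 0.05 (0.0260), with 6.64% of tested genes below that p in the lower direction. Of the 8 fold changes 5 were below 0 and their median was -0.20, beside 52.0% below 0 and a median of -0.01 over all tested genes.

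**Figure D1:**
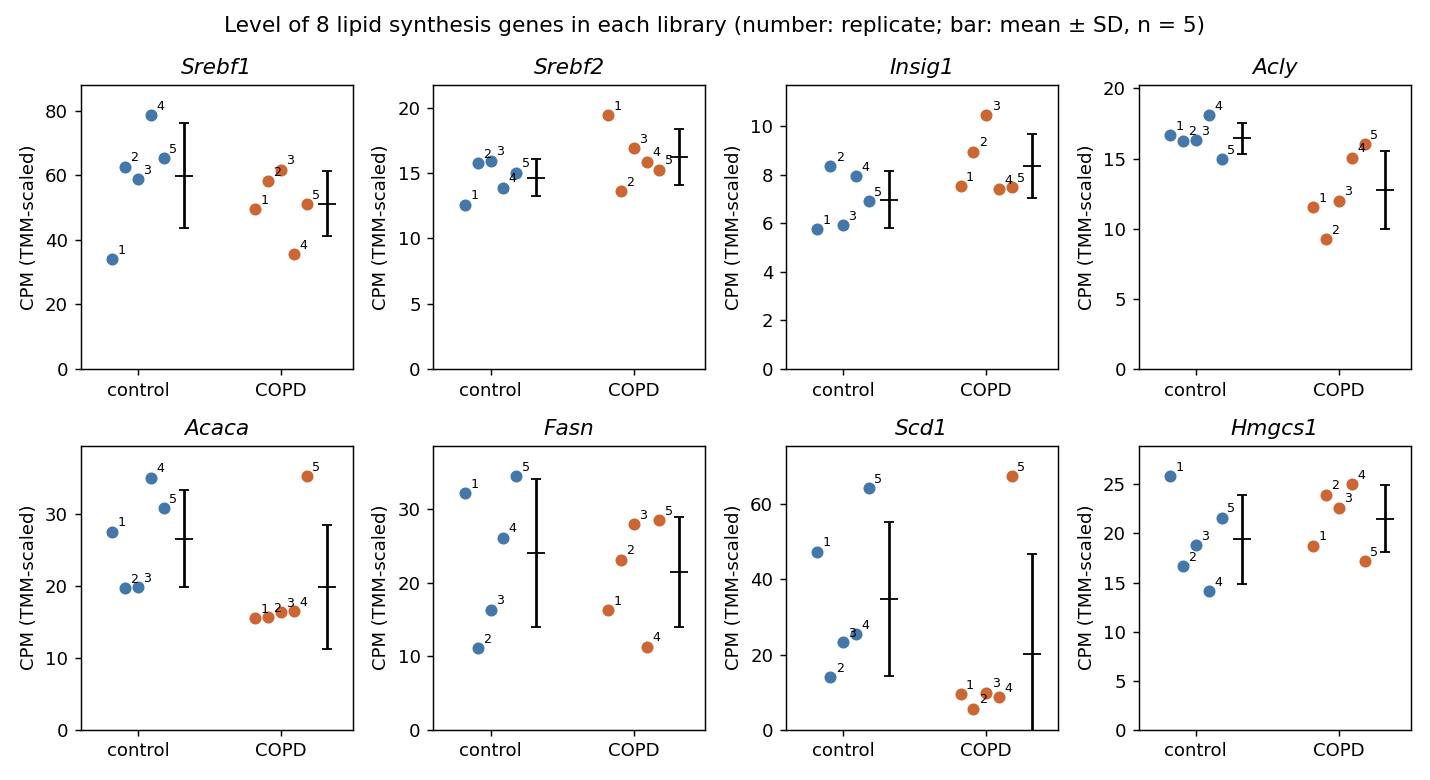
CPM (TMM-scaled, linear axis from 0) of the 8 genes in each of 5 control and 5 COPD libraries; points are libraries and bars are the mean with its SD (n = 5), the lower end of which is below 0 for Scd1 in COPD and is not drawn there. COPD replicate 5 lies at 35.3 CPM for Acaca and 67.5 CPM for Scd1, above the other 4 COPD libraries.

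Among the regulators, Srebf1, which encodes the SREBP-1 forms, read 34.0, 62.7, 58.9, 78.7 and 65.4 CPM in control replicates 1 to 5. In COPD replicates 1 to 5 it read 49.6, 58.2, 61.8, 35.6 and 51.0 CPM. Control replicate 1 was the lowest of all 10 and control replicate 4 the highest, so the COPD values lay inside the control range. The difference, -0.23 ± 0.20 on the log2 scale, did not pass edgeR's test (adjusted p = 0.661). Reads of Srebf1 are uncertain to the extent that its exons overlap those of Rai1 on the opposite strand, since the sources do not say whether counting used strand.

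Srebf2, which encodes SREBP-2, was among the steadiest of the 8 genes, with a 1.54-fold gap between its highest and lowest library. It read 12.6, 15.7, 16.0, 13.9 and 15.0 CPM in control and 19.4, 13.6, 16.9, 15.9 and 15.3 CPM in COPD. Only COPD replicates 1 and 3 lay above every control. The log2 fold change was 0.15 ± 0.12 (edgeR adjusted p = 0.607).

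Insig1, the membrane protein that retains SCAP and is itself a target of SREBPs, read 5.76, 8.34, 5.92, 7.93 and 6.91 CPM in control. In COPD it read 7.53, 8.95, 10.4, 7.40 and 7.47 CPM. COPD replicates 2 and 3 were above every control, while the other COPD libraries lay within the control range. The log2 fold change of 0.26 ± 0.15 did not pass (edgeR adjusted p = 0.463).

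Of the fatty acid enzymes, Acly (ATP citrate lyase) makes cytosolic acetyl-CoA from citrate. Its control libraries were close together, at 16.7, 16.3, 16.3, 18.1 and 15.0 CPM. COPD replicates 1 to 5 read 11.5, 9.25, 11.98, 15.1 and 16.0 CPM. COPD replicates 1, 2 and 3 lay below every control, and replicates 4 and 5 within the control range. The group means were 16.5 ± 1.11 and 12.8 ± 2.76 CPM (SD, n = 5 each), and the log2 fold change of -0.36 ± 0.14 missed the threshold (edgeR adjusted p = 0.274).

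Acaca encodes acetyl-CoA carboxylase 1, which makes the malonyl-CoA used to build fatty acids. Control replicates 1 to 5 read 27.6, 19.7, 19.9, 35.1 and 30.8 CPM. COPD replicates 1 to 4 read 15.5, 15.7, 16.4 and 16.5 CPM, a narrow band below every control, while COPD replicate 5 read 35.3 CPM, the highest of the 10 libraries. With all libraries the log2 fold change was -0.42 ± 0.25 (edgeR adjusted p = 0.475).

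Fasn, the fatty acid synthase that builds palmitate from malonyl-CoA, did not show the narrow low band that Acaca had in COPD. It read 32.2, 11.1, 16.3, 26.1 and 34.5 CPM in control and 16.3, 23.1, 27.9, 11.3 and 28.5 CPM in COPD. Low and high libraries occurred in both groups, and the highest value was 3.12 times the lowest. The log2 fold change was -0.17 ± 0.32 (edgeR adjusted p = 0.854).

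Scd1, the stearoyl-CoA desaturase that makes monounsaturated fatty acids and is abundant in fat tissue, varied most. It read 47.4, 13.9, 23.3, 25.4 and 64.3 CPM in control. COPD replicates 1 to 4 read 9.38, 5.62, 9.85 and 8.62 CPM and COPD replicate 5 read 67.5 CPM. The first 4 of these lay below every control and the last above every control. The coefficient of variation was 58.9% in control and 131% in COPD. The log2 fold change over all libraries, -0.78 ± 0.65, was close to its SE (edgeR adjusted p = 0.631). Its size rested on the method, at -1.22 by limma on log2(TPM + 1) and -1.48 by voom with library weights, and neither passed (adjusted p = 0.172 and 0.179). Scd1 has close relatives, Scd2 to Scd4, and its expected count was not whole in all 10 libraries, so the split of reads among them carries uncertainty.

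Hmgcs1, the cytosolic HMG-CoA synthase that feeds the mevalonate pathway to cholesterol, represents cholesterol synthesis among the 8. It read 25.9, 16.7, 18.8, 14.1 and 21.6 CPM in control and 18.8, 24.0, 22.6, 25.0 and 17.2 CPM in COPD. All 5 COPD values lay inside the control range, and the log2 fold change was 0.15 ± 0.17 (edgeR adjusted p = 0.733).

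Leaving out COPD replicate 5 altered the result for a pair of genes, Scd1 and Acaca. That library held the highest CPM of both, so their p-values here follow removal of the COPD value that went the other way. In TPM it was below control replicate 5 for Scd1 (22.65 against 24.79). For Acaca it was below control replicates 4 and 5 in TPM (6.26 against 6.98 and 6.28). Scd1 was then 34.8 ± 20.5 CPM in control (SD, n = 5) and 8.37 ± 1.90 CPM in COPD (n = 4), a log2 fold change of -2.06 ± 0.41 (edgeR adjusted p = 0.0249). Acaca was 26.6 ± 6.78 against 16.0 ± 0.495 CPM, a log2 fold change of -0.73 ± 0.17 (edgeR adjusted p = 0.0449). In that fit 1.15% of 12762 tested genes were called lower in COPD and 2.06% higher, and 4.22% had all COPD values below all control values, as Scd1 and Acaca did. Acly reached -0.46 ± 0.14 and missed the threshold (edgeR adjusted p = 0.0916), and the other 5 had edgeR adjusted p from 0.320 to 0.676. Leaving out any other single library gave no call among the 8.

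**Figure D2:**
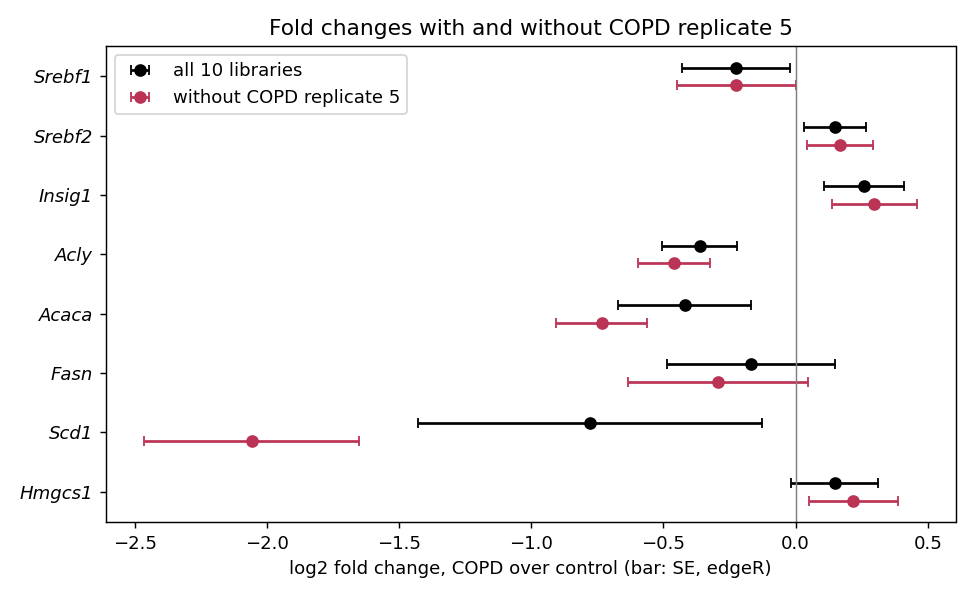
Log2 fold change (COPD over control, edgeR; bars are SE) of the 8 genes with all 10 libraries in black and without COPD replicate 5 in red. Scd1 goes from -0.78 to -2.06 and Acaca from -0.42 to -0.73, while Srebf1 stays near -0.23.

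In the 7 libraries with Y-linked transcripts (5 control, 2 COPD), no gene of the 8 passed. There the log2 fold change was -2.16 for Scd1 (edgeR adjusted p = 0.0776), -0.72 for Acaca (0.137) and -0.62 for Acly (0.0525). Srebf1 was at 0.01 and Fasn at 0.09 in those libraries, so the negative signs of both were lost. Insig1 was at 0.48 (edgeR adjusted p = 0.186).

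Some fat cell markers moved between the same libraries. Adipoq, the fat cell hormone adiponectin, read 4.08, 0.90, 1.57, 1.93 and 7.59 TPM in control replicates 1 to 5 and 0.26, 0.54, 0.38, 1.37 and 9.16 TPM in COPD replicates 1 to 5. COPD replicate 5, control replicate 5 and control replicate 1 were the 3 highest libraries for both Adipoq and Scd1. Of the 14 adipocyte markers found in the tables, 10 had a lower mean CPM in COPD replicates 1 to 4 than in control, as did 53.1% of all tested genes. COPD replicate 5 was above the control mean TPM for all 14 and the highest of the 10 libraries for 7, and it tied with control replicate 5 for Plin1. Most of the other markers were highest in libraries where Scd1 was low. Fabp4, Lipe and Aqp7 were highest in COPD replicate 4, at 775.8, 26.2 and 11.9 TPM, where Scd1 read 2.86 TPM. Pparg and Cidea were highest in COPD replicate 3, where Scd1 read 3.18 TPM. Pck1 was highest in control replicate 5 (1.77 TPM), followed by COPD replicate 5 (1.60 TPM). Scd1 had the same order in TPM, at 24.79 and 22.65. With all libraries, 7 of the 8 adipocyte markers tested were above 0, with a median log2 fold change of 0.12 and no call. Plin1, a lipid droplet coat protein, was listed at 0 in 2 libraries and Lep, leptin, in 3.

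The summed adipocyte level ran from 555.9 to 708.8 TPM in control and from 484.9 to 846.0 TPM in COPD, with no difference passing an exact permutation test (two-sided p = 0.865, adjusted p = 0.865). Fabp4, which capillary endothelium also expresses, made up 82.5% to 95.4% of that sum. Without Fabp4, a choice made after seeing the data, the sum was 60.2, 40.3, 46.5, 54.7 and 97.4 TPM in control. In COPD it was 22.1, 34.9, 35.1, 59.3 and 137 TPM, again highest in COPD replicate 5. With the mean log2 level of the 8 tested adipocyte markers as a term in the fit, the log2 fold change was -0.95 for Scd1 (edgeR adjusted p = 0.251), -0.39 for Acaca (0.292), -0.35 for Acly (0.229) and -0.09 for Fasn (0.928). A term of Adipoq, Cidec, Cfd and Retn, picked after seeing the data, was also fitted without COPD replicate 5. The log2 fold change there was -1.17 for Scd1 (edgeR adjusted p = 0.211) and -0.466 for Acaca (0.308). For Acly it was -0.433 (edgeR adjusted p = 0.296) and for Fasn 0.254 (0.850). The cause of the differences seen without COPD replicate 5 was not tested.

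**Figure D3:**
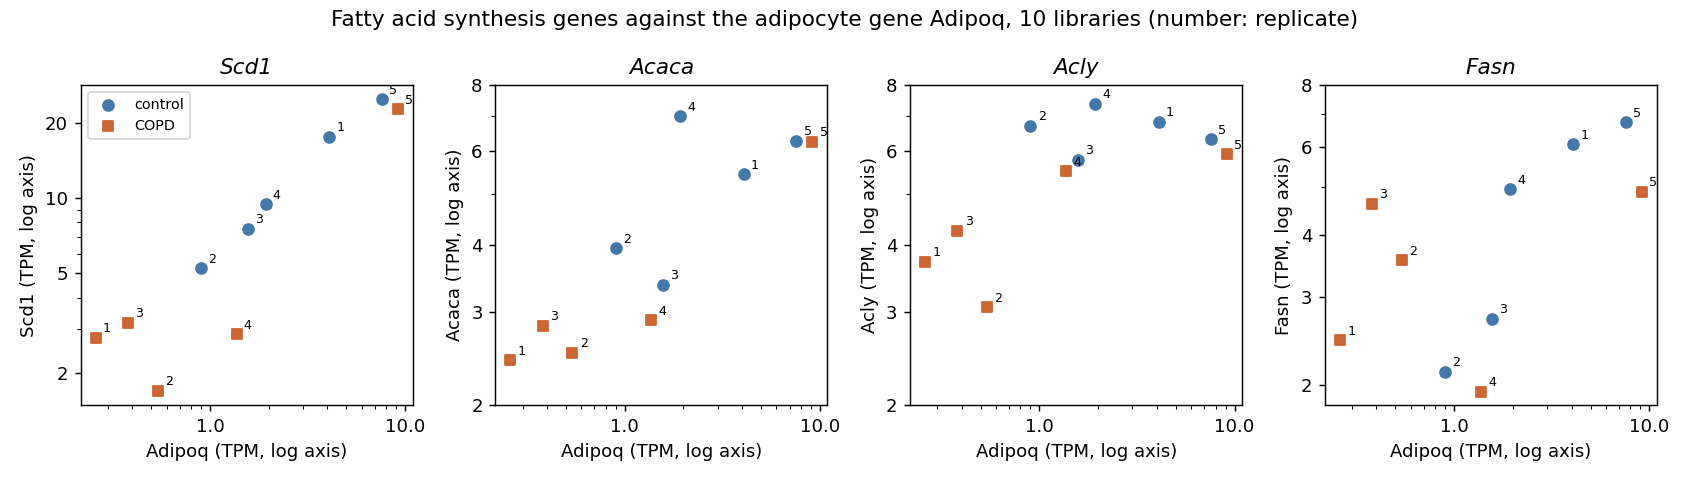
TPM of Scd1, Acaca, Acly and Fasn (vertical, log axis) against Adipoq TPM (horizontal, log axis); each point is 1 of 10 libraries, numbered by replicate, with controls as circles and COPD as squares. COPD replicate 5, at 9.16 TPM of Adipoq, lies beside control replicate 5, at 7.59 TPM, for Scd1 and Acaca.

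Per transcript length, Srebf1 was the most abundant of the 8 in control, at 25.0 ± 7.25 TPM (SD, n = 5). Scd1 followed at 12.9 ± 8.10 TPM, Hmgcs1 at 9.97 ± 2.52 and Acly at 6.60 ± 0.592 TPM. Scd1 and Hmgcs1 did not differ beyond their spread. Acaca (5.20 ± 1.53 TPM), Srebf2 (5.03 ± 0.435 TPM), Insig1 (4.72 ± 0.964 TPM) and Fasn (4.52 ± 2.03 TPM) formed a lower group that could not be ordered. In COPD the levels were 18.4 ± 3.58 TPM for Srebf1, 6.63 ± 8.97 for Scd1, 9.58 ± 1.62 for Hmgcs1 and 4.50 ± 1.21 TPM for Acly. TPM was shifted between the groups as a whole. The median log2 fold change was -0.18 on the log2(TPM + 1) scale, over the 11190 genes with a mean TPM of at least 1. On that scale Srebf2 (-0.05) and Hmgcs1 (-0.04) were below 0, close to no difference, and above it relative to the shift. The fold changes given here therefore rest on TMM-scaled counts.

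Shares between relatives that do similar work were compared within each library. Srebf1 made up 82.4% ± 4.24 (SD) of Srebf1 plus Srebf2 in the 5 controls and 78.8% ± 4.28 in the 5 COPD libraries (exact permutation p = 0.214, adjusted p = 0.357 over 5 pairs). Acaca was 9.57% ± 2.46 and 7.97% ± 3.16 of Acaca plus Acacb, the mitochondrial carboxylase that predominates in muscle (exact permutation adjusted p = 0.476). The Scd1 share of Scd1 plus Scd2 was 65.2% ± 10.9 in control and 32.8%, 29.7%, 33.9%, 46.2% and 82.8% in COPD replicates 1 to 5 (exact permutation adjusted p = 0.357). Scd2 itself had a log2 fold change of -0.06 ± 0.18 (edgeR adjusted p = 0.912), and COPD replicates 1 to 4 lay below all controls in the Scd1 share. Insig1 was 14.8% ± 2.30 and 17.2% ± 2.53 of both INSIG genes (exact permutation adjusted p = 0.357).

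The levels of Acaca and Scd1 followed each other across the 10 libraries. On log2 CPM, Pearson's r was 0.897 (permutation p = 0.00117, adjusted p = 0.0421 over 36 relations) and Spearman's rho 0.903 (permutation p = 0.00095, adjusted p = 0.0342). Without the 2 libraries farthest from the median of Acaca, r was 0.971, and on deviations from the group means it was 0.861. No other relation of the 36 passed on log2 CPM. On log2(TPM + 1), Acly with Acaca passed by rho, 0.891 (permutation adjusted p = 0.0229), and not by r, 0.804 (permutation adjusted p = 0.0565). On log2 CPM, Acly had r of 0.696 with Acaca and 0.681 with Scd1 (permutation adjusted p = 0.197 for both). Fasn had r of 0.593 with Acaca and 0.582 with Scd1 (permutation adjusted p = 0.318 for both). On log2(TPM + 1) these were 0.692 and 0.704 (permutation adjusted p = 0.174 for both). Srebf1 and Fasn had r of 0.172 (permutation adjusted p = 0.822), and Srebf1 with Hmgcs1 had r of -0.67 (permutation p = 0.0352, adjusted p = 0.211). Without the 2 libraries farthest from the median of Srebf1, r of Srebf1 with Hmgcs1 was -0.323. On log2(TPM + 1) it was -0.454 (permutation adjusted p = 0.559). The mean log2 level of the 8 tested adipocyte markers had r of 0.753 with Scd1 (permutation p = 0.0104, adjusted p = 0.124). With Acaca its r was 0.7525 (permutation p = 0.00948, adjusted p = 0.124).

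**Figure D4:**
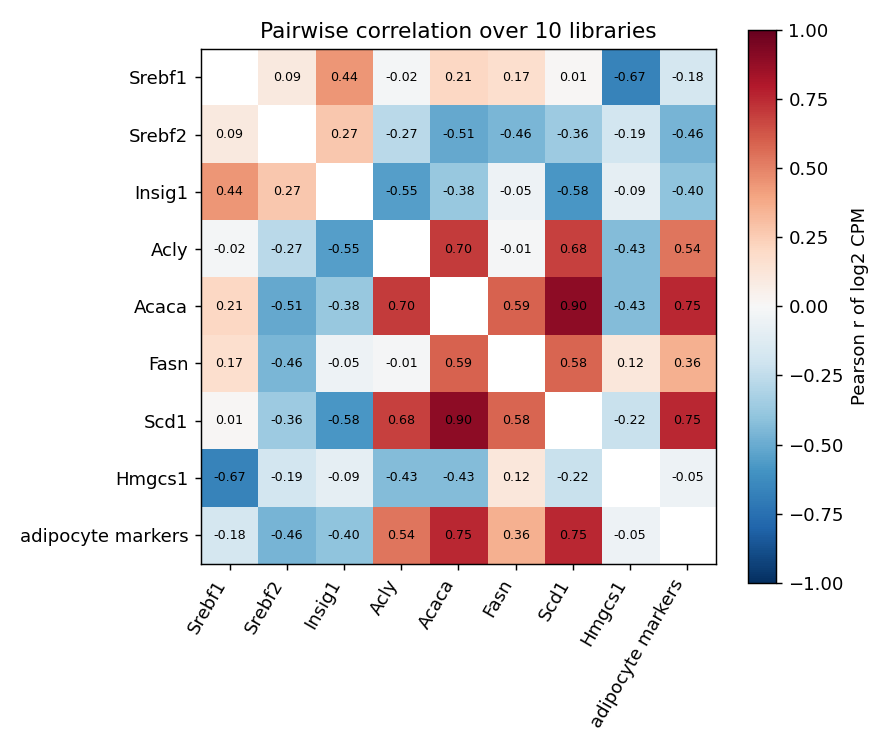
Pearson's r of log2 CPM over the 10 libraries for every pair of the 8 genes and for each gene with the mean of the adipocyte markers, as colour and number. Acaca and Scd1, at 0.897, are the closest pair.

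By the same measure, the genes most like each of the 8 were sought among 9036 genes with a mean of at least 5 CPM. The nearest to Acaca were Rps6kb1 (r = 0.945), Rbm3 (0.939) and Dusp27 (0.938), and those to Scd1 were Rnf149 (0.930), Limch1 (0.928) and Dab2 (0.922). Cul7 (0.958), Abca8a (0.940) and Eif1a (0.939) were nearest to Acly, and Gss (0.923), Plekho1 (0.902) and Mr1 (0.900) to Fasn. Unc119 (0.925), Map1lc3a (0.887) and Zbtb40 (0.887) were nearest to Srebf1, and Litaf (0.871), Gpsm1 (0.867) and Nab2 (0.858) to Srebf2. Taf1c (0.883), Tbck (0.877) and Bpnt2 (0.868) were nearest to Insig1, and Pdha1 (0.935), Lpgat1 (0.926) and Cd2bp2 (0.925) to Hmgcs1. These are descriptions over 10 libraries, picked as the highest of many. Rps6kb1, Gss, Litaf, Gpsm1, Nab2, Taf1c, Tbck and Pdha1 have exons that overlap a gene on the opposite strand.

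Around the 8 genes, none of the 16 tested genes of SREBP processing passed edgeR's test, and their median log2 fold change was -0.02. Scap, the escort, was at -0.03 ± 0.09 and Insig2 at 0.00 ± 0.10, with a sign that turned under other scalings. Paqr3, which anchors SCAP to the Golgi, was at -0.34 ± 0.15 and Erlin2 at -0.29 ± 0.13 (edgeR adjusted p = 0.311 and 0.328). Rnf139, a ubiquitin ligase of the endoplasmic reticulum, was at -0.20 ± 0.10 (edgeR adjusted p = 0.383). Exons of Paqr3 and of Rnf139 overlap a gene on the opposite strand, so both values are uncertain.

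Of 24 tested genes for cholesterol synthesis and uptake none passed, with 14 above 0, 10 below and a median of 0.10. Fdps, which makes farnesyl diphosphate, read 17.4, 18.5, 21.3, 17.4 and 15.1 CPM in control and 26.4, 21.97, 22.9, 22.6 and 23.3 CPM in COPD, so every COPD library was above every control. Its log2 fold change was 0.39 ± 0.11 (edgeR adjusted p = 0.137). Fdft1, the squalene synthase that uses farnesyl diphosphate, read 80.7, 105.1, 99.3, 105.4 and 94.9 CPM in control and 78.3, 64.3, 70.7, 74.8 and 65.3 CPM in COPD. Every COPD library was below every control, with a log2 fold change of -0.46 ± 0.10 (edgeR adjusted p = 0.0963), but exons of Fdft1 overlap those of the abundant Ctsb on the opposite strand. Mvd, a decarboxylase of the mevalonate pathway, was at -0.38 ± 0.18 (edgeR adjusted p = 0.353) and Sqle, squalene epoxidase, at -0.36 ± 0.21 (0.474).

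In the list for fatty acid synthesis and desaturation, 15 of 20 tested genes were below 0, with a median of -0.14 and no call. Mid1ip1, which activates acetyl-CoA carboxylase, was at -0.88 ± 0.24, from 26.5 ± 7.98 to 14.3 ± 3.58 CPM (SD, n = 5 each; edgeR adjusted p = 0.127). Its relative Thrsp was at 0.42 ± 0.16 (edgeR adjusted p = 0.272). Mlycd, the decarboxylase that removes malonyl-CoA, was at 0.64 ± 0.20 (edgeR adjusted p = 0.189). Without COPD replicate 5, where 2.06% of all genes were called higher, Mlycd rose by 0.78 on the log2 scale (edgeR adjusted p = 0.0380), and it was called beside Acaca and Scd1, which were lower. Acacb was at -0.13 ± 0.14 and the elongase Elovl6 at -0.86 ± 0.50 (edgeR adjusted p = 0.714 and 0.460).

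Glycerolipid synthesis had 10 of 13 tested genes above 0, a median of 0.12 and no call with all libraries. Pnpla3, a lipid droplet protein and target of SREBP-1c in liver, read 12.9, 8.52, 9.97, 7.21 and 11.9 CPM in control and 28.4, 18.2, 12.9, 25.6 and 22.4 CPM in COPD. Its log2 fold change was 1.09 ± 0.22 (edgeR adjusted p = 0.0780). Lpin3, a phosphatidate phosphatase, read 2.71 to 5.30 CPM in control and 6.43 to 9.63 CPM in COPD, with no overlap (edgeR adjusted p = 0.0858). Without COPD replicate 5 both rose, each by 1.07 on the log2 scale (edgeR adjusted p = 0.0376 and 0.0273). Gpat3 was at 0.84 ± 0.30 (edgeR adjusted p = 0.232).

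**Figure D5:**
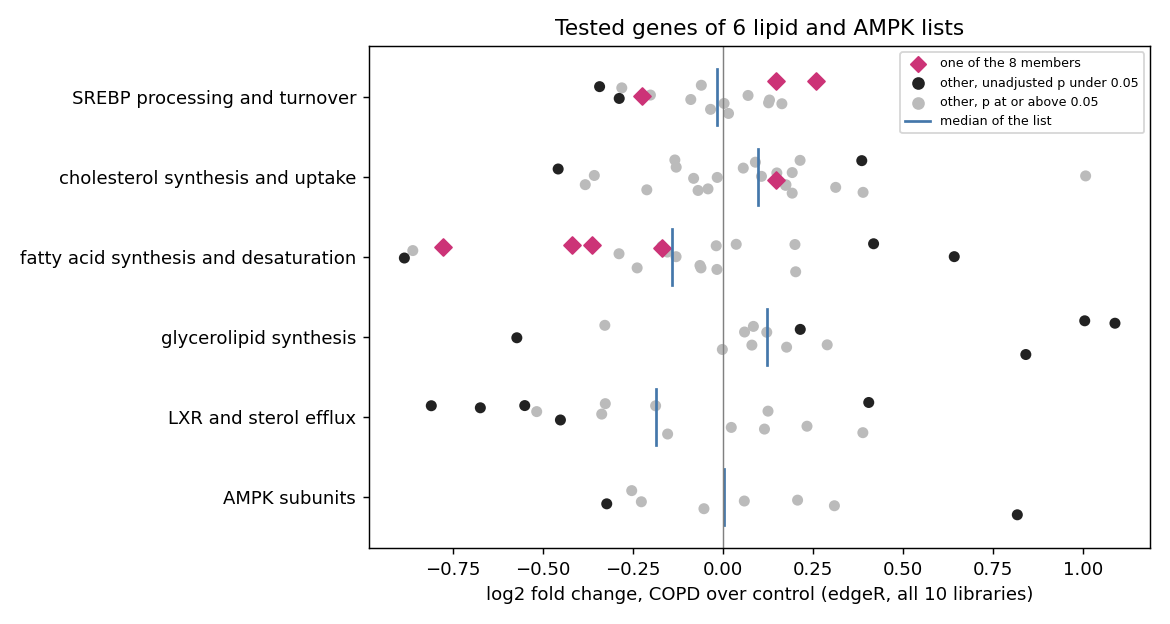
Log2 fold change (COPD over control, edgeR, all 10 libraries) of every tested gene in each pathway list; diamonds are the 8 genes, black points other genes with an unadjusted p under 0.05, grey points the rest, and the vertical line each list's median; the AMPK list also holds Stk11. The medians lie between -0.19 for LXR and sterol efflux and 0.12 for glycerolipid synthesis, and none of the plotted genes passed an adjusted p of 0.05.

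The liver X receptors (LXRs) sense oxysterols and induce both Srebf1 and sterol export. No gene of the 15 tested in that list passed, 9 were below 0 and the median was -0.19. Abca1, the cholesterol exporter, read 16.0, 21.7, 15.6, 19.1 and 21.9 CPM in control and 9.45, 9.32, 9.48, 12.5 and 12.98 CPM in COPD. Every COPD library was below every control, and the log2 fold change of -0.81 ± 0.15 just missed the threshold (edgeR adjusted p = 0.0611). Apoe was at -0.67 ± 0.24 (edgeR adjusted p = 0.232), Nr1h2 (LXR beta) at -0.45 ± 0.16 (0.227) and Nr1h3 (LXR alpha) at -0.34 ± 0.20 (0.463). Without COPD replicate 5, Abca1 and Apoe both fell by 0.89 on the log2 scale (edgeR adjusted p = 0.0119 and 0.0452). Macrophages express Abca1 and Apoe highly. The summed level of 10 macrophage markers was 107.7 to 186.2 TPM in control and 44.1 to 142.9 TPM in COPD (exact permutation p = 0.0238, adjusted p = 0.143 over 6 marker lists). Its part in these differences was not tested.

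AMP-activated kinase (AMPK) phosphorylates and inhibits the acetyl-CoA carboxylases. Of 8 genes, the AMPK subunits and Stk11, which encodes the upstream kinase LKB1, none passed and 4 lay on each side of 0. Prkag2, a regulatory subunit, read 6.998, 7.81, 8.71, 5.71 and 7.02 CPM in control and 9.23, 13.9, 12.9, 15.9 and 11.8 CPM in COPD, without overlap. Its log2 fold change was 0.82 ± 0.16 (edgeR adjusted p = 0.0757), and without COPD replicate 5 it rose by 0.85 (edgeR adjusted p = 0.0273). Prkaa2, the catalytic subunit that prevails in muscle, was at -0.32 ± 0.10 and Prkab1 at -0.25 ± 0.13 (edgeR adjusted p = 0.189 and 0.410). Prkaa2 also had no overlap, in the other direction, at 173.6 to 233.8 CPM in control and 149.5 to 166.1 CPM in COPD.

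The remaining marker lists were measured for cells that a piece of muscle can hold. Summed Schwann cell markers ran from 93.4 to 198.1 TPM in control and 67.4 to 248.6 TPM in COPD, and endothelial markers from 166.9 to 257.4 and 148.7 to 253.0 TPM. Tendon markers ran from 31.4 to 65.6 TPM in control and 44.03 to 118.5 TPM in COPD, and 6 of 7 tested tendon genes were above 0 with a median log2 fold change of 1.18 and no call. None of these 3 sums, nor that of the fast fibre markers, differed by the exact permutation test (adjusted p = 0.865, 0.762, 0.333 and 0.798).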

How the data were processed

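The authors deposited 2 tables for 18025 genes: expected counts (estimated reads per gene, of which 30.7% were not whole) and TPM, a level per transcript length. The tools listed, without role or order, in the submitters' processing notes are RSEM 1.2.12, HISAT2 2.0.4, DESeq2 1.4.5 and Bowtie2 2.2.5, and the build is mm9. The sources used here do not say whether counting used strand.

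Expected counts were rounded, filtered with filterByExpr (12697 genes kept), scaled by TMM and fitted over all genes with edgeR 4.0.16 (glmQLFit, glmQLFTest; Benjamini-Hochberg, threshold 0.05) in R 4.3.3. The script was tested on simulated data. The SE of a log2 fold change is its size over the square root of F. Correlations used log2 CPM with a prior count of 2 and 100000 resamples. Shares and marker sums used two-sided exact permutation tests over 252 relabelings (smallest p 0.00794). Alternatives used DESeq2 1.42.0 and limma 3.58.1; figures used matplotlib 3.10.9.

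Groups and replicate numbers came from titles. Libraries differed beyond sampling noise in all 45 pairs (chi-square over its degrees of freedom 18.1 to 124), and each counts as 1 replicate. The named genes were the 8, list genes that passed, the 3 smallest p per pathway list, fixed regulators and paralogs, and the 3 most alike per gene. The genes, lists, tests and rule were chosen with earlier results of these data known. Exon overlaps came from GENCODE M21 (GRCm38), another build than the files', so no gene coordinates were taken from it. Results for some list genes and 1 of the 5 paralog pairs are not reported here; adjustments still cover them.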

Additional observations from a re-analysis of the deposited data

Results flagged for a closer look

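In a group of 5, a library was marked when its gap to the nearest other exceeded 0.71 of the group's range (Dixon's 95% value). Chance marks about 1 in 20 groups, 7.4 of the 148 tested, and 11 were marked. Some of the genes were picked for likeness to the 8 over these same libraries. The groups are therefore not independent, and these counts cannot be weighed against each other. COPD replicate 5 stood above the other 4 COPD libraries in 8 of the 11. Acaca was at 35.3 CPM there against 15.5 to 16.5, and Scd1 at 67.5 CPM against 5.62 to 9.85. Among fat cell markers, Adipoq was at 6.73 CPM against 0.222 to 1.02, Plin1 at 1.65 against 0 to 0.147 and Lep at 0.857 against 0 to 0.148. Rbm3 (149 CPM against 41.5 to 57.6) and Dusp27 (85.2 against 36.7 to 44.3) were likewise high there, and both were named for their likeness to Acaca. Rnf149, named for its likeness to Scd1, was at 5.45 CPM against 4.55 to 4.66.

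Lep was also high in control replicate 5, at 0.497 CPM against 0 to 0.113 in the other controls. Nab2 was at 11.96 CPM in COPD replicate 1 against 6.38 to 7.72. Sqle was at 1.47 CPM in control replicate 1 against 1.53 to 1.55, a small gap in a tight group.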

How the results depend on the processing

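Of the 12697 genes, 8 were called; RLE, upper-quartile and library-size scaling gave 8, 10 and 6, DESeq2 414, no low-count filter 17, limma on log2(TPM + 1) 67 and on log2(TPM + 0.1) 65, voom with library weights 137, the libraries with Y-linked transcripts 488, a term for them 216 and a term for adipocyte markers 47. Leaving out 1 library gave 0 (without COPD replicate 2, where 1510 had an unadjusted edgeR p under 0.05) to 410 (without COPD replicate 5), and 0 to 2 of the 8 lipid genes. Each other setting called 0 of these 8. The edgeR calls were 7 higher and 1 lower, those of DESeq2 263 and 151, and those of limma on log2(TPM + 1) 9 and 58.

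Replicate numbers gave no sign of pairing: same-numbered deviations correlated at 0.0192, 0.0413, -0.00222, -0.0321 and -0.140. The highest correlations with another number were 0.140 to 0.156. The labels do not say whether samples were paired, and these values cannot decide it. With the replicate number as a block 7 genes were called, none of the 8 lipid genes, 1 tendon gene, and Insig2 was at -0.00284.

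Signs turned for Srebf1 (0.0106 in libraries with Y-linked transcripts, 0.00253 with that term), Fasn (0.0922 and 0.0846, and 0.00801 with a term of Adipoq, Cidec, Cfd and Retn picked after seeing the data, or 0.254 also without COPD replicate 5), Srebf2 (-0.00412 by library size, -0.0514 and -0.0611 by limma) and Hmgcs1 (-0.0044, -0.0351 and -0.0369 in the same order). Leaving out 1 library gave -0.734 to -0.30 for Acaca and -2.06 to -0.437 for Scd1. Scd1, at -0.78 with edgeR, was at -1.22 and -1.45 by limma, -1.48 by voom, -1.26 with the replicate block and -2.16 and -2.17 under the Y-linked settings, and Acaca, at -0.42, at -0.652 by limma on log2(TPM + 0.1) and -0.724 and -0.732 under the Y-linked settings, none of them called. With the later-picked marker term Scd1 was at -0.791 and, also without COPD replicate 5, at -1.17 (edgeR adjusted p = 0.211), and Acaca at -0.328 and -0.466 (0.308). Insig2 turned to -0.0273 (upper quartile), -0.155 (library size), -0.00594 (no filter), -0.185 and -0.192 (limma), and ran from -0.0417 to 0.0448 with 1 library left out. Scd2 was at 0.0516 and 0.0445 under the Y-linked settings and ran from -0.16 to 0.0577, Scap from -0.0681 to 0.00732 and Adipoq from -2.08 to 0.305. The cause was not tested.

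Calls per list: cholesterol 2 (DESeq2) and 1 (limma, both, and both Y-linked settings); fatty acid 1 (DESeq2) and 0 to 3 without 1 library; glycerolipid 2 (DESeq2), 1 (voom) and 0 to 2; LXR 1 (DESeq2, limma, voom, Y-linked term, adipocyte term), 3 (Y-linked libraries) and 0 to 2; AMPK 1 (DESeq2, voom, Y-linked libraries) and 0 to 1; macrophage 3 (Y-linked libraries) and 0 to 1; tendon 2 (DESeq2), 1 (voom, Y-linked libraries) and 0 to 1. COPD minus control sums were 31.8 (adipocyte) and 12.4 (Schwann) in CPM; without 1 library they ran from -64.1 to 26.2, -40.2 to 5.08 and, for fast fibres, -693 to 21100 TPM.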
